A study of Mus musculus with 24 samples.

Results

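The 10 genes described here encode proteins that make prostaglandins, leukotrienes and related lipid signals: Ptgs1, Ptgs2, Ptges, Ptgis, Hpgds, Alox5, Alox5ap, Lta4h, Ltc4s and Alox15. They were chosen by name and followed through all 6 groups of the study, and all 10 matched a feature among the 54532 of the count table. RNA came from mouse peritoneal macrophages in 3 states: control cells (M0), cells given LPS and IFN-γ (M1) and cells given IL-4 (M2). Each state was measured without and with ONX-0914, which blocks LMP7 (Psmb8), a subunit of the immunoproteasome. Each of the 6 groups holds 4 libraries, labelled as independent, and each library pools cells of 2 to 3 mice. The labels used here name no strain, age, dose or duration.

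Arachidonic acid, released from membranes by phospholipases, is the common starting point of these lipids. The cyclooxygenases Ptgs1 (COX-1) and Ptgs2 (COX-2) turn it into prostaglandin H2, which terminal synthases then convert: Ptges makes prostaglandin E2, Hpgds prostaglandin D2 and Ptgis prostacyclin. In the other branch the 5-lipoxygenase Alox5, helped by the membrane protein Alox5ap (FLAP), makes leukotriene A4, which Lta4h turns into leukotriene B4 and Ltc4s into leukotriene C4. Alox15 is the 12/15-lipoxygenase, known from resident peritoneal macrophages. COX-2 and Ptges are the classical inducible pair of inflamed macrophages.

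Libraries held 18230924 to 22882972 counts. Levels below are CPM, counts relative to the TMM-scaled library size, given as mean ± SD over 4 libraries or library by library in the order of the replicate numbers. Adjusted p-values are from edgeR's quasi-likelihood test with Benjamini-Hochberg adjustment over 14692 tested genes, and a gene is said to rise or fall when that value is under 0.05. Nos2 stood at 1979 ± 314 CPM in M1 with 4 counts over the M0 libraries, and Arg1 at 1947 ± 156 CPM in M2 against 72.5 ± 6.87 in M0. With ONX-0914 Nos2 was lower in M1, at 885 ± 94.6 CPM, and Arg1 lower in M2, at 966 ± 140 CPM. All 7 macrophage markers were found, at a summed 9080 to 14500 CPM. Of the resident peritoneal markers, Gata6 was at 26.5 ± 3.34 CPM in M0, while Timd4 was at 0.180 ± 0.175 CPM. In M1 they stood at 11.6 ± 1.06 and 10.2 ± 1.36 CPM. The 8 markers of mesothelial cells and fibroblasts, led in M0 by Col1a1, were all present, at a summed 448 to 713 CPM. Of the 11 mast cell and basophil markers, summed at 2.83 to 31.5 CPM, Mcpt8 and Prss34 had no count in any group. Of the eosinophil markers Epx and Ear6 had none, and of the neutrophil markers S100a9, Ly6g and Retnlg had none. The 7 eosinophil markers summed to 6.0 to 19.3 CPM, of which all but 0.0593 to 1.01 CPM came from Siglecf. The 10 neutrophil markers summed to 42.2 to 159 CPM, nearly all from Csf3r, which was at 44.0 ± 4.43 CPM in M0 and 137 ± 11.5 in M1. The 7 B cell markers summed to 36.9 to 112 CPM, most of it from Cd22. With ONX-0914 their mean sum went from 94.8 to 57.6 CPM in M0, from 68.8 to 39.2 in M1 and from 108 to 61.6 in M2. The 6 markers other than Cd22 went from 9.19 to 2.3 CPM in M0, from 6.61 to 2.33 in M1 and from 6.59 to 1.55 in M2. The part of these cells in the results below was not tested. In M1 replicate 2, mitochondrial genes took 0.300% of counts, against 1.07% to 1.14% in the rest of M1, so calls among the 10 genes that change without this library are given both ways. In bulk RNA, fewer cells of a type and less RNA per cell cannot be told apart.

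The sequences just before the transcription starts of both cyclooxygenases and of Ptges are shown because these 3 genes carry the main contrast: Ptgs2 and Ptges rose in M1, where Ptgs1 fell. Each window is the 250 bases before the RefSeq start (GRCm38.p6), printed 5′ to 3′ on the strand of the gene, with motif matches in capitals. Ptgs1's lies at chr2:36230176-36230425 (plus strand), that of Ptgs2 at chr1:150099781-150100030 (plus strand) and that of Ptges at chr2:30903298-30903547 (minus strand). The Ptges window lies inside the GENCODE span of Ptges, 30889471 to 30929863. Its RefSeq start is thus downstream of the 5′ end annotated there, and bases before that end were not searched.
Ptgs1: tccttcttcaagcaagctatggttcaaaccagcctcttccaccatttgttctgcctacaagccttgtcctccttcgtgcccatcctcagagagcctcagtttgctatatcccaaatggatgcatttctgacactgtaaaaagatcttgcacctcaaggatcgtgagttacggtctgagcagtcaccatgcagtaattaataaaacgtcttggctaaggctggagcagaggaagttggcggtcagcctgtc
Ptgs2: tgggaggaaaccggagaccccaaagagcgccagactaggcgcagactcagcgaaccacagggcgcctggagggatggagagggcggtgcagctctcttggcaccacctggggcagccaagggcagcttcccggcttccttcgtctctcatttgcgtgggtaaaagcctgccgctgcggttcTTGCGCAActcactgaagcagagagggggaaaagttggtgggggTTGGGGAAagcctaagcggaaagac
Ptges: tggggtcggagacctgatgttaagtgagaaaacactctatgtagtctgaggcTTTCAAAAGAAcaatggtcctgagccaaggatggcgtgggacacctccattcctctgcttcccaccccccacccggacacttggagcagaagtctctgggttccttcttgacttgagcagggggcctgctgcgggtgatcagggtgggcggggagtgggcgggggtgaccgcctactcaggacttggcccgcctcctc
Both strands were searched for 8 motifs: CRE (TGACGTCA), the CRE core CGTCA, C/EBP (TTNNGNAA), AP-1 (TGANTCA), GAS (TTCNNNGAA) and the longer motifs of NF-kB, STAT6 and ISRE, which are named here without their letters. The Ptgs2 window held 2 C/EBP matches, TTGCGCAA from base -69 to -62 and TTGGGGAA from -25 to -18, counted from the start. The Ptges window held overlapping C/EBP and STAT6 matches, from -198 to -191 and from -197 to -188, and the Ptgs1 window held none of the 8. Over 32851 mouse promoter windows of the same length, 36.8% held a C/EBP match, 5.85% a STAT6 match and 3.9% an NF-kB match. The Ptgs2 window lies for 183 bases over exons of Ptgs2os, a neighbouring gene. Of the 10 genes, 7 matched the RefSeq promoter table, and Alox15, Alox5ap and Ptgis did not. A match describes letters, and no binding was measured here. Bases farther upstream or beyond the start used were not searched, so a motif not found in a window may still lie near the gene.

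Polarization moved most of the set. From M0 to M1, 3 of the 10 genes rose and 6 fell, where 68.8% of all tested genes were called, 34.6% upward and 34.2% downward. From M0 to M2, 6 rose and 2 fell, where 36.2% of all tested genes were called, 18.7% upward and 17.5% downward. The median log2 change of the 10 genes was -1.16 in M1, where that of all genes was -0.02, and 0.53 in M2, where it was 0.01. Compared directly, 2 of the 10 were higher in M1 than in M2 and 8 were lower, where 66.6% of all tested genes were called, 32.2% upward and 34.4% downward.

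ONX-0914 moved fewer of the 10. In M0, 2 rose and 0 fell, where 21.0% of all tested genes were called, 9.54% upward and 11.4% downward, and leaving out 1 library gave 0 to 4 calls in the set (0 without M0 replicate 3 or M0 ONX-0914 replicate 1 or 4, and 4 without M1 replicate 2). In M1, 1 rose and 3 fell, where 44.3% of all tested genes were called, 16.6% upward and 27.7% downward. In M2, 3 rose and 1 fell, where 36.4% of all tested genes were called, 17.6% upward and 18.8% downward. The share of the set called thus lay near the background in each state. The 3 states each enter several of these comparisons, which are therefore not independent.

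**Figure D1:**
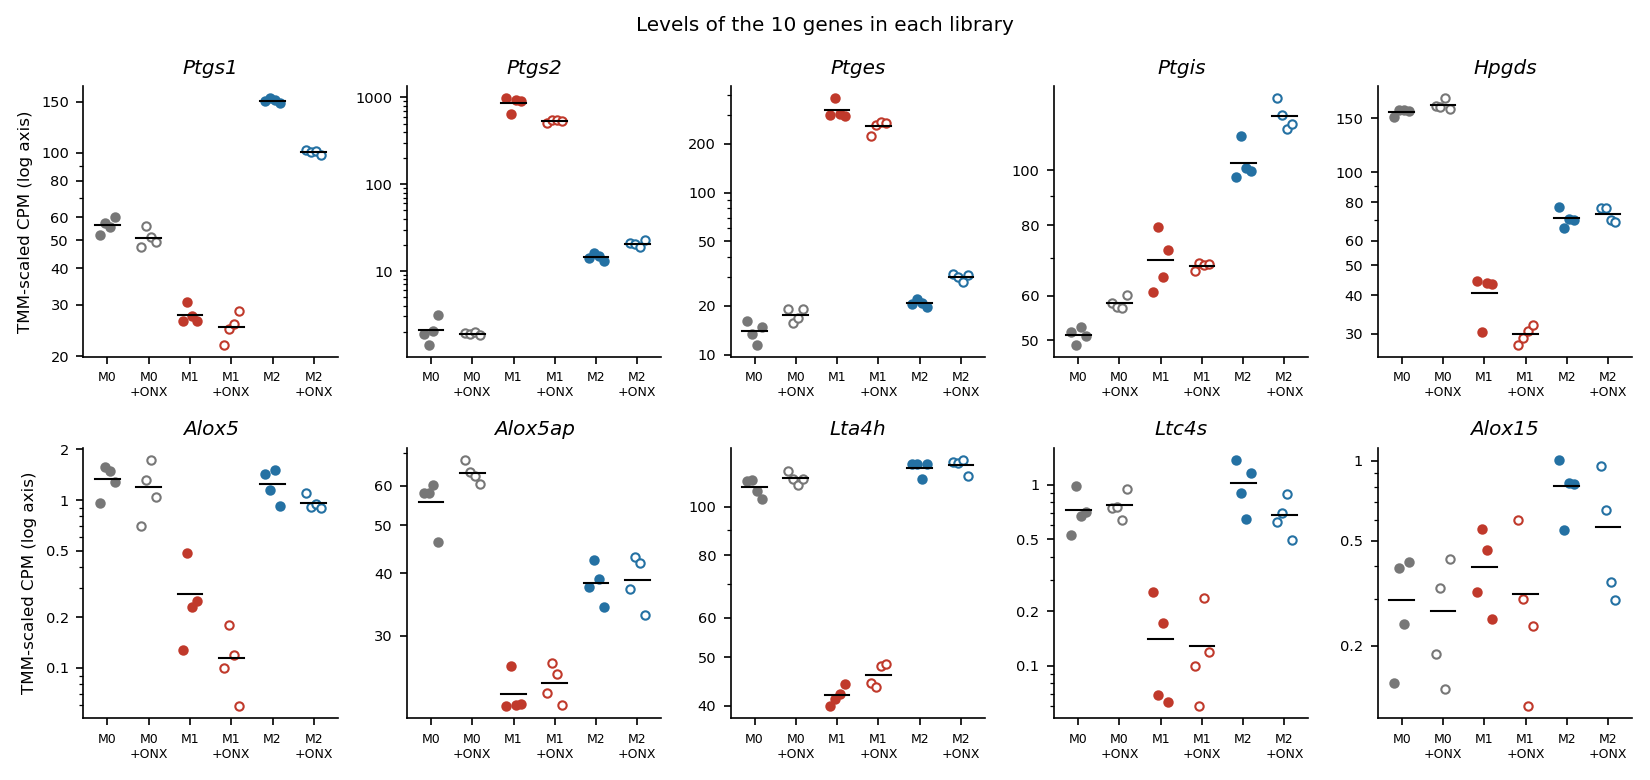
TMM-scaled CPM (log axis, a scale of its own in each panel) of each gene in the 24 libraries, where filled points are libraries without and open points libraries with ONX-0914, drawn from replicate 1 to 4, and bars are group means. Ptgs2 and Ptges were highest in the M1 groups, Ptgs1 and Ptgis in the M2 groups, and Hpgds and Alox5ap in the M0 groups.

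The cyclooxygenases separated the states. Positions are those of GENCODE on GRCm38. Ptgs2 (ENSMUSG00000032487, chromosome 1, 150100031 to 150108227, plus strand) was low in M0, at 1.88, 1.42, 2.03 and 3.11 CPM. In M1 its libraries read 977, 646, 941 and 902 CPM, and in M2 14.0, 15.9, 14.8 and 13.2 CPM. The 3 states did not overlap, and within M1 the low library was replicate 2. Ptgs2 rose 403-fold in M1 (log2 change 8.66 ± 0.151 SE, adjusted p = 2.11e-26) and 6.74-fold in M2 (log2 change 2.75 ± 0.156, adjusted p = 6.52e-14). M1 stood 59.9-fold above M2 (adjusted p = 1.01e-24).

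ONX-0914 moved Ptgs2 in opposite directions in the polarized states. With the inhibitor the M1 libraries read 507, 547, 556 and 536 CPM, all below the lowest M1 library without it, and the M2 libraries 20.8, 20.5, 18.8 and 22.8 CPM, all above the highest M2 library without it. Ptgs2 fell by 0.69 on the log2 scale in M1 (SE 0.0977, adjusted p = 1.6e-06) and rose by 0.52 in M2 (SE 0.117, adjusted p = 0.000871). The effect in M1 minus that in M2 was -1.21 on the log2 scale (SE 0.152, adjusted p = 2.49e-06). In M0 the libraries with ONX-0914 stood at 1.91, 1.89, 1.96 and 1.85 CPM, within the range of those without, and the change of -0.17 had a 95% interval of -0.61 to 0.26 (adjusted p = 0.632). The effect in M1 minus that in M0 was -0.52 (adjusted p = 0.126), which passed without M1 replicate 2 (-0.63, adjusted p = 0.00922) or without M0 replicate 4 (-0.79, adjusted p = 0.0157). The effect in M2 minus that in M0 was 0.69 (adjusted p = 0.0957), and it passed without M1 replicate 2 (0.69, adjusted p = 0.0121) or M0 replicate 2 (0.84, adjusted p = 0.0366). Without M1 replicate 2 the change of Ptgs2 in M1 was -0.81.

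Ptgs1 (ENSMUSG00000047250, chromosome 2, 36230426 to 36252272, plus strand), the constitutive cyclooxygenase, took another course. It read 52.0, 57.5, 55.6 and 59.9 CPM in M0, 26.4, 30.6, 27.5 and 26.3 CPM in M1, and 151, 154, 151 and 148 CPM in M2. The states did not overlap: M1 was low and M2 high in every library. Ptgs1 fell by 1.02 on the log2 scale in M1 (SE 0.0673, adjusted p = 1.52e-13) and rose 2.68-fold in M2 (log2 change 1.42 ± 0.0631, adjusted p = 3.67e-16). With ONX-0914 the M2 libraries read 102, 100.4, 102 and 98.6 CPM, below all M2 libraries without it but above all M0 libraries. In M2 Ptgs1 fell by 0.59 on the log2 scale with the inhibitor (SE 0.0615, adjusted p = 1.69e-08). With the inhibitor Ptgs1 read 47.6, 55.9, 51.2 and 49.3 CPM in M0 and 21.9, 24.7, 25.7 and 28.5 CPM in M1. In both states the libraries with and without inhibitor overlapped, with changes of -0.14 (95% interval -0.27 to -0.01, adjusted p = 0.118) and -0.14 (-0.28 to 0.01, adjusted p = 0.119). In M0 the change passed without M1 replicate 2 (-0.14, adjusted p = 0.0459) or M0 ONX-0914 replicate 2 (-0.19, adjusted p = 0.048), and in M1 without M1 ONX-0914 replicate 4 (-0.20, adjusted p = 0.0258). The effect in M2 minus that in M0 was -0.44 (adjusted p = 0.00189), and the effect in M1 minus that in M2 was 0.45 (adjusted p = 0.0013).

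Scaled by exonic length, the more abundant cyclooxygenase changed with the state. Ptgs2 made up 3.06% ± 0.884 of the summed cyclooxygenase CPM per kb in M0, 96.2% ± 1.03 in M1 and 7.51% ± 0.462 in M2 (SD, n = 4). With ONX-0914 its share in M2 was 14.9% ± 1.15, in libraries that ran from 13.6% to 16.4% against 7.0% to 8.08% without. There Ptgs2 rose while the sum went from 42.0 ± 0.854 to 30.4 ± 0.233 CPM per kb. In M1 the share was 94.8% ± 0.460 with the inhibitor, in libraries that ran from 94.1% to 95.2%. Of the M1 libraries without it, replicate 2 alone, at 94.7%, fell in that range, and the others lay above. The sum in M1 was 196 ± 32.3 without and 124 ± 5.07 CPM per kb with the inhibitor. These shares were not tested.

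**Figure D2:**
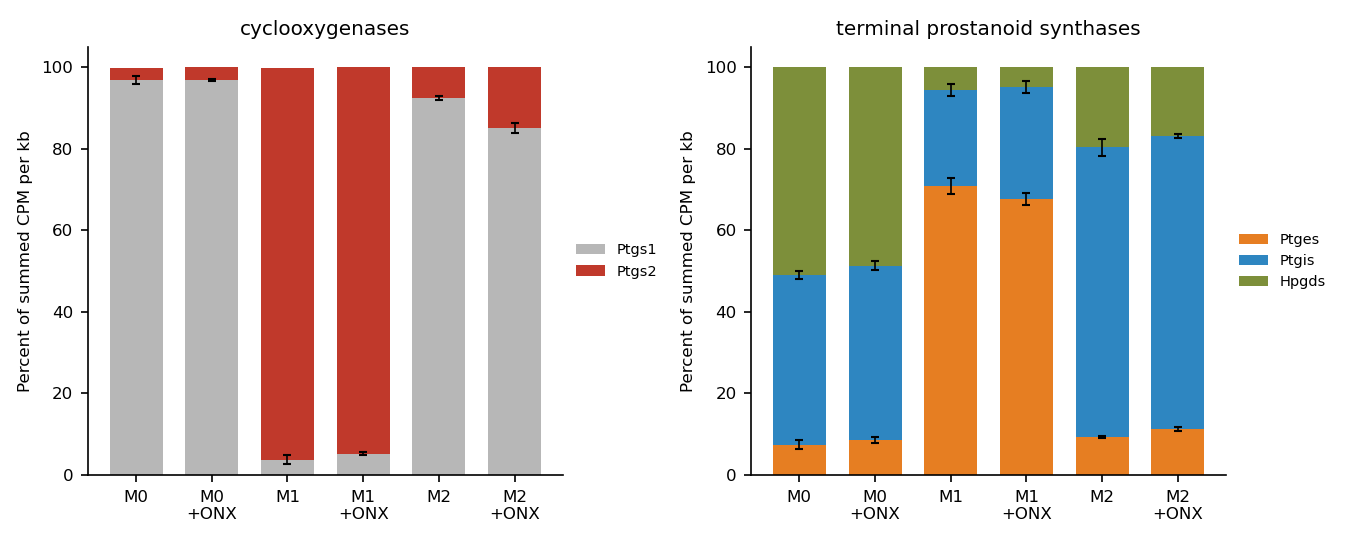
Share of each gene in the summed CPM per kb of exonic length, for the cyclooxygenases (left) and for Ptges, Ptgis and Hpgds (right), as means over 4 libraries with SD bars. Ptgs2 made up 3.06% of the cyclooxygenase sum in M0 and 96.2% in M1, and Ptges 7.43% and 70.9% of the synthase sum.

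Of the terminal synthases, Ptges moved most. Ptges (ENSMUSG00000050737, chromosome 2, 30889471 to 30929863, minus strand) read 16.1, 13.4, 11.5 and 14.9 CPM in M0, 301, 381, 305 and 295 CPM in M1, and 20.6, 22.0, 20.8 and 19.5 CPM in M2. No library of one state reached another, and M1 replicate 2 was the highest of M1, where for Ptgs2 it was the lowest. Ptges rose 22.9-fold in M1 (log2 change 4.52 ± 0.0993, adjusted p = 2.53e-24) and rose 1.48-fold in M2 (log2 change 0.57 ± 0.0983, adjusted p = 4.03e-05). With ONX-0914 it stood at 19.1, 15.8, 16.7 and 19.0 CPM in M0, at 225, 259, 274 and 267 CPM in M1, and at 31.4, 30.0, 28.0 and 31.2 CPM in M2. It rose in M0 (log2 change 0.33 ± 0.0994, adjusted p = 0.0167) and in M2 (0.54 ± 0.0934, adjusted p = 3.99e-05), and fell in M1 (-0.32 ± 0.0821, adjusted p = 0.00201).

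The inhibitor's effect on Ptges in M1 differed from that in M0 by -0.66 (adjusted p = 0.000481) and from that in M2 by -0.87 (adjusted p = 1.71e-05). As for Ptgs2, the sign was downward in M1 and upward in M2. Without M1 replicate 2 the change in M1 stayed called (-0.23, adjusted p = 0.0033), and it was not called when only the M1 libraries were fitted (-0.23, adjusted p = 0.067). In M0 the libraries overlapped, and the call ended without M0 replicate 3 (0.25), M0 ONX-0914 replicate 1 (0.29) or M0 ONX-0914 replicate 4 (0.30).

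Hpgds (ENSMUSG00000029919, chromosome 6, 65117293 to 65144908, minus strand) had its highest level in the M0 groups. It read 151, 159, 159.6 and 158 CPM in M0, 44.6, 30.4, 43.8 and 43.4 CPM in M1, and 77.0, 66.2, 70.6 and 69.9 CPM in M2. Both polarized states lay wholly below M0: Hpgds fell in M1 (log2 change -1.95 ± 0.0809, adjusted p = 4.49e-18) and in M2 (-1.15 ± 0.0773, adjusted p = 2.36e-12). With ONX-0914 the M1 libraries read 27.7, 29.1, 30.5 and 32.0 CPM, which overlapped with M1 replicate 2 alone, and Hpgds fell (-0.45 ± 0.0841, adjusted p = 8.42e-05). Without that library the groups did not overlap and the fall was larger (-0.56, adjusted p = 1.94e-09). With inhibitor the M0 libraries read 164, 163, 174 and 160.0 CPM, just above those without, and the M2 libraries 76.6, 76.6, 70.1 and 68.9 CPM. The changes there were 0.07 (95% interval -0.08 to 0.23, adjusted p = 0.542) and 0.04 (-0.12 to 0.20, adjusted p = 0.722). The effect in M1 differed from that in M0 by -0.52 (adjusted p = 0.00135) and from that in M2 by -0.49 (adjusted p = 0.00401), the latter not called with the M1 and M2 libraries fitted alone (-0.38, adjusted p = 0.0781).

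Ptgis (ENSMUSG00000017969, chromosome 2, 167191805 to 167240604, minus strand), the prostacyclin synthase, had the smallest ratio of the 10 between its highest and lowest group mean, 2.44. It stood at 51.7, 49.2, 52.7 and 50.9 CPM in M0, 60.9, 79.5, 64.8 and 72.3 CPM in M1, and 97.2, 115, 101 and 99.8 CPM in M2. The states did not overlap. Ptgis rose 1.36-fold in M1 (log2 change 0.44 ± 0.0657, adjusted p = 1.3e-06) and rose 2.02-fold in M2 (log2 change 1.01 ± 0.0649, adjusted p = 8.11e-13). With ONX-0914 it rose in M2, to 134, 125, 118 and 121 CPM, all above the M2 libraries without it (log2 change 0.27 ± 0.0632, adjusted p = 0.00114). In M0 it rose to 58.3, 57.3, 57.2 and 60.2 CPM, also without overlap (0.19 ± 0.0654, adjusted p = 0.0417).

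The M0 call of Ptgis ended when any of the 8 M0 libraries was left out, at changes of 0.17 to 0.20, and without M1 ONX-0914 replicate 3 or M2 ONX-0914 replicate 2 (0.19 and 0.19). It also ended with DESeq2 size factors (0.18, adjusted p = 0.0558) and with no count filter (0.18, adjusted p = 0.102). In M1 Ptgis read 66.3, 68.4, 67.9 and 68.2 CPM with inhibitor, a change of -0.03 (95% interval -0.17 to 0.10, adjusted p = 0.704), and of 0.04 without M1 replicate 2. The effects in M1 and M2 differed by -0.31 (adjusted p = 0.0229), a call that ended without M2 replicate 1 (-0.28) or M2 ONX-0914 replicate 1 (-0.27), with the M1 and M2 libraries fitted alone (-0.20, adjusted p = 0.273), with DESeq2 size factors (-0.27, adjusted p = 0.0553) and with no count filter (-0.29, adjusted p = 0.0579). The effects in M1 and M0 differed by -0.22 (adjusted p = 0.0961), which passed without M1 replicate 1 (-0.28). Fibroblasts and mesothelial cells are also known to make prostacyclin. Their 8 markers summed to 507 to 666 CPM in M0, 493 to 619 in M1 and 448 to 564 in M2, and with ONX-0914 to 619 to 713 in M0, 498 to 572 in M1 and 487 to 572 in M2. With ONX-0914 the mean of these sums went from 589 to 654 CPM in M0, from 583 to 542 in M1 and from 513 to 539 in M2. The part of these cells in the Ptgis values was not tested.

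Per kb of exon, the order of the 3 synthases differed between states. In M0 Hpgds held 51.0% ± 1.30 and Ptgis 41.6% ± 0.948 of their sum, in M1 Ptges held 70.9% ± 2.02, and in M2 Ptgis held 71.1% ± 2.06 (SD, n = 4). With ONX-0914 these leading shares were 48.6% ± 1.57 for Hpgds in M0, 67.7% ± 1.55 for Ptges in M1 and 71.8% ± 0.434 for Ptgis in M2. The sum was 47.9 ± 0.432 CPM per kb in M0, 115 ± 11.9 in M1 and 56.5 ± 2.76 in M2.

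All 4 genes of the leukotriene branch, Alox5, Alox5ap, Lta4h and Ltc4s, fell in M1 against M0 and were lower in M1 than in M2. Among all tested genes, 34.2% fell in M1 against M0 and 34.4% were lower in M1 than in M2. Alox5 and Ltc4s did not pass the count filter when only the M1 libraries with and without inhibitor were fitted. They were thus tested through the M0 and M2 groups, where they were higher. The 8 markers of resident peritoneal macrophages summed to 875 to 939 CPM in M0, 525 to 579 in M1 and 1090 to 1170 in M2. Most of that sum was Cd9, at 856 ± 29.9 CPM in M0 and 500.0 ± 27.0 in M1, while the other 7 summed to 41.4 to 46.6 CPM in M0 and 47.1 to 52.3 in M1, Gata6 being lower and Timd4 higher there. The part of this in the falls of these 4 genes and of Hpgds was not tested. Lta4h (ENSMUSG00000015889, chromosome 10, 93453411 to 93484875, plus strand), which completes leukotriene B4, read 113, 113, 108 and 104 CPM in M0, 39.9, 41.3, 42.3 and 44.1 CPM in M1, and 122, 122, 114 and 122 CPM in M2. It fell by 1.38 on the log2 scale in M1 (SE 0.0504, adjusted p = 2.25e-19). Its rise in M2 was small (0.13 ± 0.0477, adjusted p = 0.0319). That call ended under DESeq2 size factors (0.11) and without M0 replicate 3 or 4 or M2 replicate 1, 2 or 4 (0.11 to 0.12). It also ended with no count filter (0.12, adjusted p = 0.26) and with a filter of 1 CPM in 4 libraries (0.098, adjusted p = 0.106).

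Alox5ap (ENSMUSG00000060063, chromosome 5, 149264767 to 149288153, plus strand), the 5-lipoxygenase activating protein, read 58.1, 58.1, 60.3 and 46.3 CPM in M0, 21.6, 26.1, 21.8 and 21.8 CPM in M1, and 37.6, 42.5, 39.0 and 34.2 CPM in M2. It fell in both polarized states, by 1.29 on the log2 scale in M1 (SE 0.0926, adjusted p = 1.08e-12) and by 0.54 in M2 (SE 0.0875, adjusted p = 1.63e-05). Per kb of exon it was the most abundant of the 4 in M0, at 39.2 ± 4.46 CPM per kb against 17.9 ± 0.736 for Lta4h. Alox5 itself was far lower, at 0.324 ± 0.0660 CPM per kb.

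Alox5 (ENSMUSG00000025701, chromosome 6, 116410077 to 116461178, minus strand) rested on few counts, 114 over the 4 M0 libraries, 17 in M1 and 108 in M2. Its libraries read 0.965, 1.57, 1.5 and 1.28 CPM in M0, 0.127, 0.485, 0.231 and 0.252 CPM in M1, and 1.42, 1.15, 1.52 and 0.916 CPM in M2. It fell by 2.28 on the log2 scale in M1 (SE 0.348, adjusted p = 1.78e-06). In M2 its change was -0.08 (95% interval -0.60 to 0.44, adjusted p = 0.847).

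Ltc4s (ENSMUSG00000020377, chromosome 11, 50236461 to 50238616, minus strand), the leukotriene C4 synthase, had 62 counts in M0, 9 in M1 and 87 in M2. It read 0.531, 0.981, 0.676 and 0.704 CPM in M0, 0.255, 0.0692, 0.173 and 0.0630 CPM in M1, and 1.38, 0.9, 0.65 and 1.16 CPM in M2. It fell by 2.30 on the log2 scale in M1 (SE 0.425, adjusted p = 2.81e-05), and in M2 its change was 0.49 (95% interval -0.08 to 1.07, adjusted p = 0.183). Mast cells and basophils are known for Alox5 and Ltc4s. Their markers summed to 3.57 to 5.55 CPM in M0 and 20.6 to 31.5 in M1, and most of the M1 sum was Hdc, at 1.71 ± 0.184 CPM in M0 and 23.1 ± 4.53 in M1. The other 10 markers summed to 1.88 to 4.06 CPM in M0, 1.32 to 1.94 in M1 and 1.78 to 2.64 in M2. Their mean sums were 2.9, 1.55 and 2.2 CPM, and with ONX-0914 1.6, 2.0 and 1.49 CPM. The part of these cells in the Alox5 and Ltc4s values was not tested.

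ONX-0914 left most of this branch without a call. In M0 none of the 4 passed, although all Alox5ap libraries with inhibitor (67.7, 64.0, 62.9 and 60.6 CPM) lay above those without (0.20, 95% interval 0.02 to 0.37, adjusted p = 0.107). That change passed with the M0 libraries alone (0.21, adjusted p = 0.0312) and without M1 replicate 2 (0.20, adjusted p = 0.0437). In M1 Lta4h rose slightly with inhibitor, to 44.4, 43.7, 48.1 and 48.4 CPM (0.14 ± 0.0514, adjusted p = 0.0312), in libraries that overlapped. The call ended without M1 replicate 1 (0.12), M1 ONX-0914 replicate 3 (0.12) or M1 ONX-0914 replicate 4 (0.11). It also ended with no count filter (0.15, adjusted p = 0.125). Alox5 had 8 counts over the M1 libraries with inhibitor, at 0.1, 0.180, 0.119 and 0.0593 CPM, and a change of -1.20 (-2.33 to -0.06, adjusted p = 0.0812). That change passed without M1 replicate 1 (-1.43, adjusted p = 0.0431) and was -0.81 without M1 replicate 2. In M2 none passed. Ltc4s there had a change of -0.58 (adjusted p = 0.116), which passed without M2 replicate 3 (-0.75, adjusted p = 0.048). No difference of the inhibitor's effect between states was called for any of the 4.

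The other values of these genes with inhibitor lay within or across the range of the libraries without it. Alox5ap read 21.8 to 26.4 CPM in M1 and 37.1, 43.1, 42.0 and 33.0 CPM in M2. Lta4h read 118, 114, 111 and 114 CPM in M0 and 123, 122, 124 and 115 CPM in M2. For Lta4h the 95% intervals of the change were narrow, -0.04 to 0.16 in M0 and -0.08 to 0.12 in M2. Alox5 read 0.698, 1.32, 1.74 and 1.04 CPM in M0 and 1.10, 0.904, 0.944 and 0.893 CPM in M2. Ltc4s read 0.744, 0.755, 0.639 and 0.948 CPM in M0, 0.1, 0.0600, 0.237 and 0.119 CPM in M1 and 0.621, 0.703, 0.894 and 0.496 CPM in M2. For Ltc4s the intervals were wide, from -1.38 to 1.09 in M1, where 9 counts stood against 9.

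Alox15 (ENSMUSG00000018924, chromosome 11, 70344152 to 70352031, minus strand) was low in every group. It had 26 counts over the M0 libraries, 25 in M1 and 69 in M2, or 0.145, 0.392, 0.241 and 0.414 CPM in M0, 0.318, 0.554, 0.462 and 0.252 CPM in M1, and 1.01, 0.55, 0.823 and 0.82 CPM in M2. All M2 libraries lay above all M0 libraries, and Alox15 rose by 1.40 on the log2 scale in M2 (SE 0.412, adjusted p = 0.00878). With only the M0 and M1 libraries fitted, Alox15 did not pass the count filter, nor did it with a filter of 1 CPM in 4 libraries. Alox15 was thus tested through the M2 groups, where it was highest, and its rise there is given as a description only. In M1 its change was 0.38 (95% interval -0.62 to 1.39, adjusted p = 0.5), and M1 and M2 overlapped. The call of M1 below M2 (-1.01, adjusted p = 0.0356) ended without M1 replicate 1 (-0.92) or 4 (-0.85), or M2 replicate 1 (-0.88), 3 or 4 (both -1.0). It also ended with no count filter (-1.02, adjusted p = 0.0622). With ONX-0914 Alox15 read 0.186, 0.330, 0.137 and 0.427 CPM in M0, 0.600, 0.300, 0.119 and 0.237 CPM in M1 and 0.955, 0.653, 0.348 and 0.298 CPM in M2. No change of Alox15 with the inhibitor was called, and the intervals were wide, such as -1.27 to 0.27 in M2.

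**Figure D3:**
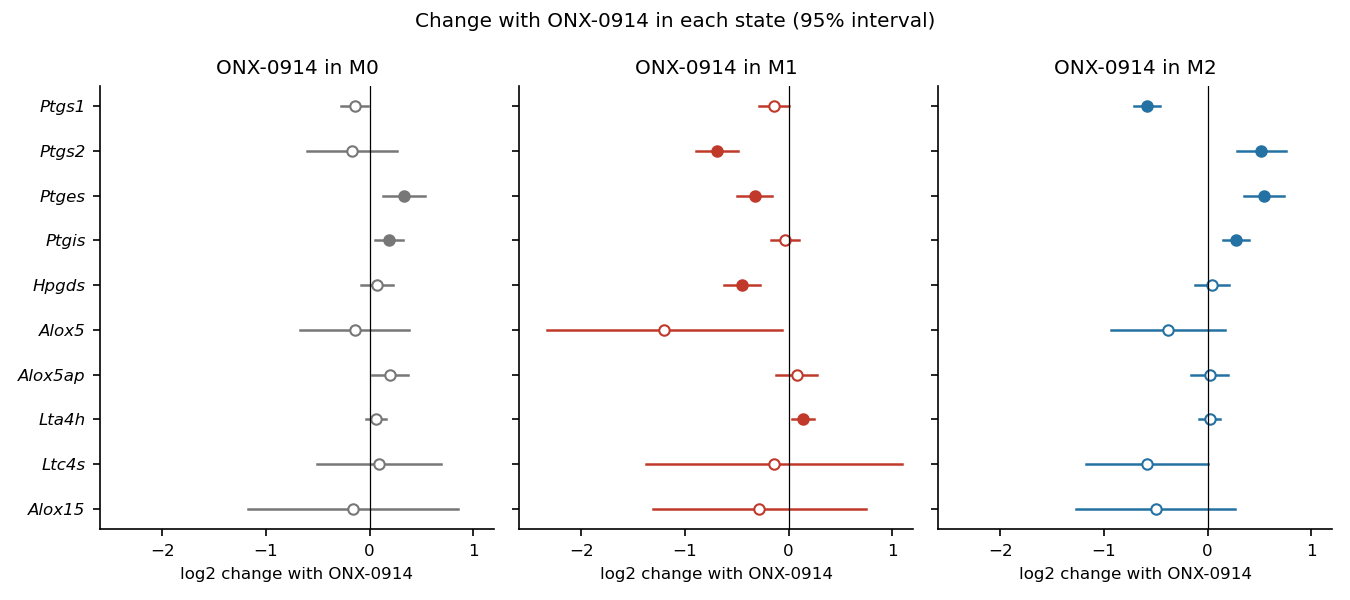
Log2 change with ONX-0914 of each gene within M0, M1 and M2, as edgeR estimates with 95% intervals, where filled points have an adjusted p under 0.05. Ptgs2 and Ptges lay below 0 in M1 (-0.69 and -0.32) and above 0 in M2 (0.52 and 0.54), while Ptgs1 was called in M2 (-0.59).

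The difference of the inhibitor's effect between states was also counted over the set. Between M1 and M2, 5 of the 10 genes differed (Ptgs1, Ptgs2, Ptges, Ptgis and Hpgds), 4 of them with the lower effect in M1, where 13.5% of all tested genes were called, 3.8% upward and 9.68% downward. With DESeq2 size factors 39.2% of the genes so called were upward, against 28.2% here. Between M1 and M0, 2 of 10 differed (Ptges and Hpgds), where 19.3% of all tested genes were called, 6.9% upward and 12.4% downward. Between M2 and M0, 1 of 10 differed (Ptgs1), where 6.17% of all tested genes were called, 3.44% upward and 2.74% downward. The intervals of Alox5, Ltc4s and Alox15 in these tests each spanned more than 1 on the log2 scale, for example -1.62 to 1.15 for Ltc4s between M1 and M0.

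Beside the 10 genes, 61 other genes of the pathway were followed in 6 lists, of which 59 matched 1 feature each and 39 passed the count filter. In M1, 10 of these rose and 20 fell, and in M2, 13 rose and 10 fell, against the background shares given above. Without M1 replicate 2 these counts were 11 and 21 in M1 and 17 and 10 in M2. Their median log2 change was -0.40 in M1 and 0.09 in M2. Pla2g4a, the cytosolic phospholipase that releases arachidonic acid, rose from 23.3 ± 0.720 CPM in M0 to 63.0 ± 8.77 in M1 (adjusted p = 1.75e-15) and rose to 34.9 ± 1.74 in M2 (adjusted p = 8.89e-07). Of the 12 tested genes of its list, 3 rose and 6 fell in M1, where 34.6% of all tested genes rose and 34.2% fell. Daglb, a diacylglycerol lipase, fell there from 251 ± 13.1 to 37.0 ± 5.75 CPM (adjusted p = 5.64e-21). With ONX-0914 Pla2g4a fell in M1, to 46.0 ± 2.31 CPM (-0.46 ± 0.0747, adjusted p = 1.43e-05), and this effect differed from those in M0 (-0.44, adjusted p = 0.00478) and M2 (-0.41, adjusted p = 0.00978). Neither difference was called with the libraries of that comparison fitted alone (-0.35, adjusted p = 0.0511, and -0.30, adjusted p = 0.132).

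Among the other prostanoid synthases, 2 of 7 rose and 4 fell in M1, and 1 rose and 1 fell in M2, where 3 rose without M1 replicate 2. The shares of all tested genes were 34.6% upward and 34.2% downward in M1, and 18.7% and 17.5% in M2. Tbxas1, the thromboxane synthase, was lower in M1 and higher in M2, as Ptgs1 was: it stood at 80.9 ± 7.34 CPM in M0, 57.4 ± 3.54 in M1 (adjusted p = 4.69e-07) and 199 ± 7.64 in M2 (adjusted p = 1.28e-14). With ONX-0914 it fell to 158 ± 8.10 CPM in M2 (adjusted p = 0.000215). Ptges3, a cochaperone also counted as a prostaglandin E synthase, rose with the inhibitor in all 3 states, by 0.55 on the log2 scale in M0 (adjusted p = 0.00339), 0.81 in M1 (adjusted p = 1.18e-05) and 0.92 in M2 (adjusted p = 2.9e-06).

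Most tested prostanoid receptors were lower in M1 and higher in M2. Of the 5 tested, 4 fell in M1, and in M2 3 rose and 0 fell, with median log2 changes of -0.93 and 1.29. Of all tested genes 34.2% fell in M1 and 18.7% rose in M2. Ptgir, the prostacyclin receptor, stood at 125 ± 7.74 CPM in M0, 59.5 ± 5.13 in M1 (adjusted p = 5.97e-15) and 356 ± 7.45 in M2 (adjusted p = 2.71e-17). With ONX-0914 it fell to 89.6 ± 4.49 CPM in M0 (adjusted p = 9.61e-07) and fell to 229 ± 7.13 in M2 (adjusted p = 1.46e-09), while in M1 its change was 0.10 (adjusted p = 0.18). That change passed without M1 replicate 2 (0.17, adjusted p = 0.0161) and with voom (0.17, adjusted p = 0.0115), and was 0.07 without M1 ONX-0914 replicate 4. Ptger2, a receptor of prostaglandin E2, rose from 10.8 ± 0.505 CPM in M0 to 32.5 ± 0.766 in M2 (adjusted p = 1.56e-13) and fell there to 18.4 ± 1.84 CPM with the inhibitor (adjusted p = 3.47e-08).

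Of the 4 tested receptors of leukotrienes and lipoxins, 2 rose in M1 and 2 in M2, and none fell in either. Among all tested genes, 34.6% rose in M1 and 18.7% in M2. However, 1 receptor fell in M1 without M1 replicate 2, M0 replicate 4 or M1 ONX-0914 replicate 1. In M2, 1 fell without M0 replicate 1 or M2 replicate 2. Fpr2, a formyl peptide receptor that also binds lipoxin A4, rose from 0.147 ± 0.0913 CPM in M0 to 106 ± 4.24 in M1 (adjusted p = 1.63e-25) and fell to 41.1 ± 1.43 CPM there with ONX-0914 (adjusted p = 1.78e-13). Of the 5 tested lipoxygenase and leukotriene enzymes outside the set, 0 rose and 4 fell in M1, where 34.2% of all tested genes fell. Mgst2, a microsomal glutathione transferase that can also make leukotriene C4, rose with ONX-0914 in M0, to 5.08 ± 0.455 CPM (2.02 ± 0.180, adjusted p = 2.41e-09). Its effect in M1 differed from that in M0 by -1.71 (adjusted p = 0.000132) and from that in M2 by -1.63 (adjusted p = 0.000357). Between M2 and M0 the effect differed for 0 of these 5 genes, Mgst2 included, where 6.17% of all tested genes were called. Without M1 replicate 2 it differed for 2 of the 5. Of 6 tested transport and breakdown genes, 3 rose and 2 fell in M1, where 34.6% of all tested genes rose and 34.2% fell. Abcc1, an exporter of leukotriene C4, rose there from 70.5 ± 3.58 to 149.5 ± 8.68 CPM (adjusted p = 1.26e-16), and Abcc4, an exporter of prostaglandins, fell with ONX-0914 in M1 from 25.6 ± 1.87 to 17.7 ± 2.08 CPM (-0.53 ± 0.0835, adjusted p = 7.79e-06).

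**Figure D4:**
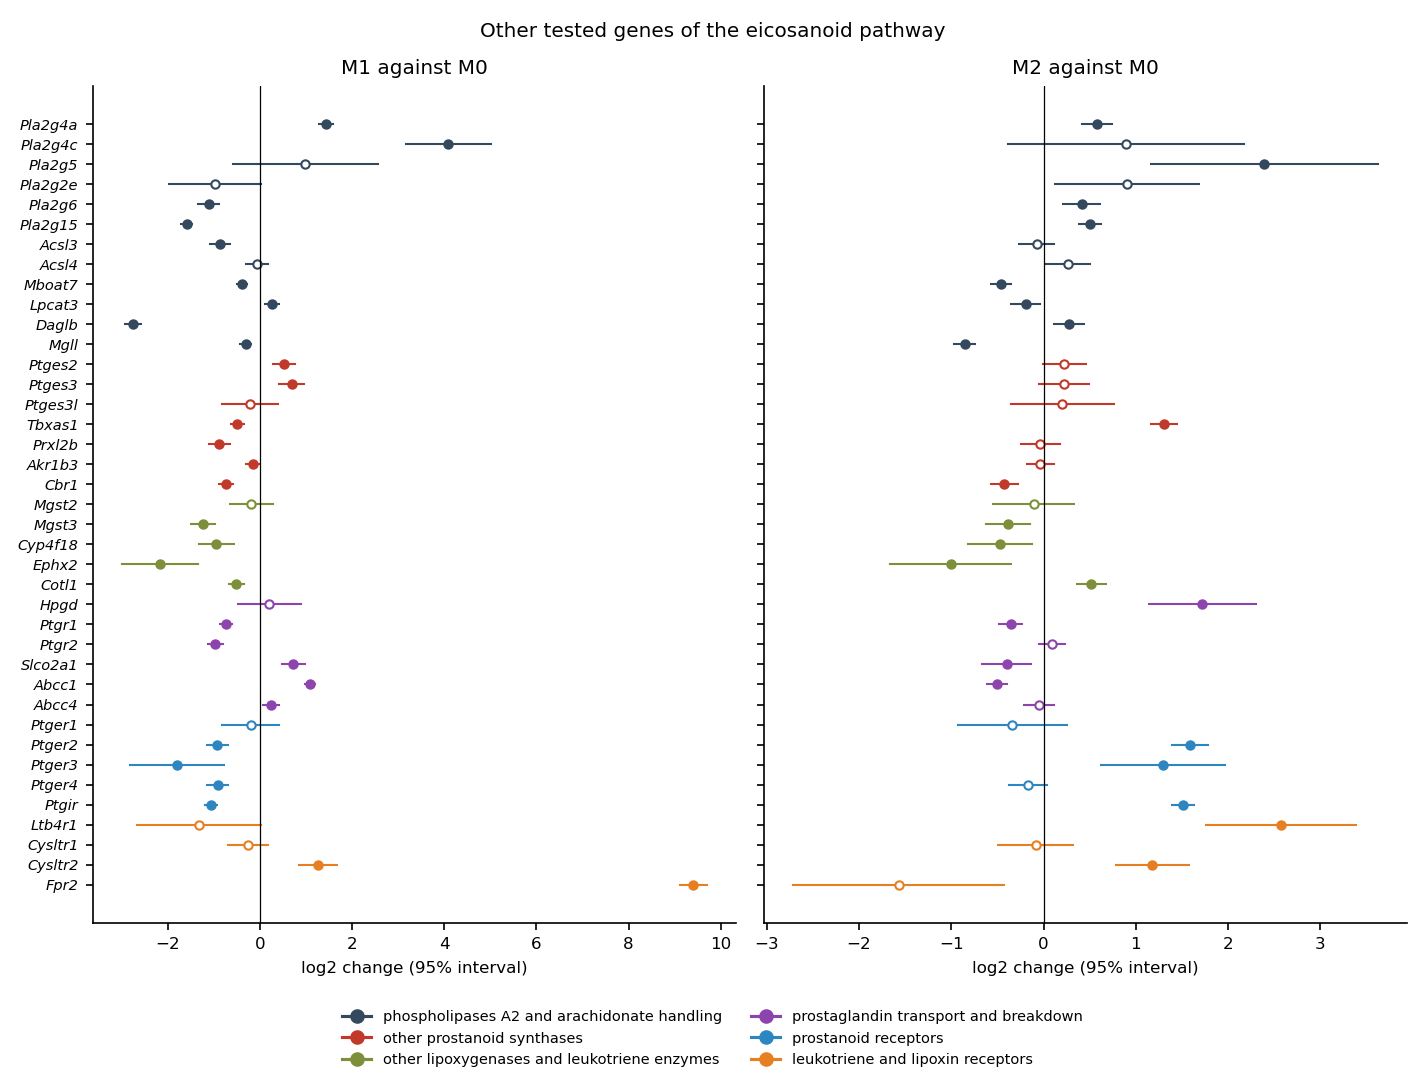
Log2 change of the 39 other tested pathway genes in M1 against M0 (left) and M2 against M0 (right), with 95% intervals, coloured by list, where filled points have an adjusted p under 0.05. Most prostanoid receptors lay below 0 in M1 and above 0 in M2, as Ptgir did at -1.07 and 1.51.

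Over the 24 libraries, 7 of the 10 genes were abundant enough (a mean of at least 5 CPM) to look for genes of like pattern, by Pearson's r of log2(CPM + 0.5). The libraries fall into groups, so these values mainly describe the group means. Closest to Ptgs2 were Fndc3a (r = 0.996), Ccl7 (0.994) and F10 (0.994), and closest to Ptges were Pdpn (0.996), Gch1 (0.995) and Tapbp (0.995). Arg1 was among the 3 closest to Ptgs1 (0.99), with Tmem268 (0.994) and Rab3il1 (0.992). Serpina3n (0.973) was closest to Ptgis, Stard9 (0.985) to Hpgds, Nlrc3 (0.975) to Alox5ap and Slc46a3 (0.994) to Lta4h. Within the set, Ptgs2 and Ptges ran together (0.973), and Ptgs2 ran opposite to Alox5ap (-0.967), Hpgds (-0.949) and Lta4h (-0.909).

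Annotated genes on the opposite strand share exonic bases with 4 of the 10: Gm43621 with Ptgs1 (148 bases), 1110018N20Rik with Ptgis (156), Gm19719 with Alox5ap (189) and Gm26542 with Ltc4s (268). The sources used here name no strand setting for the counting, so reads of such pairs cannot be told apart. Gm43621 reached at most 1.60 CPM in a library and the other 3 at most 0.414 CPM, which is small beside Ptgs1, Ptgis and Alox5ap but of the order of Ltc4s.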

How the data were processed

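RNA of 24 libraries was measured in 6 groups of 4. The deposited values are raw counts per Ensembl gene. Per the submitters' processing notes, FastQC 0.11.9, cutadapt 2.8, Bowtie2 2.2.5, Picard and the mouse build mm10 were used. No source used here names the counter, its strand setting or its annotation. Symbols, positions and exonic lengths came from GENCODE (GRCm38). Of 54532 features 54409 had a symbol, and the other 123 held 0.0282% of counts.

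The 14692 genes that passed edgeR's filterByExpr held 99.927% of counts. They were fitted with edgeR 4.0.16 (R 4.3.3): TMM scaling, 1 mean per group over all libraries, 18 residual degrees of freedom, and the quasi-likelihood test with Benjamini-Hochberg adjustment. Standard errors were taken from the fold change and its F statistic, and 95% intervals use t with the fit's degrees of freedom. All 10 members passed the filter, Alox15 through the M2 groups and Alox5 and Ltc4s through the M0 and M2 groups, where they were higher. The fit was also run on counts simulated from its own means and spreads, for ONX-0914 in M1 alone. Such counts hold no aberrant library, so that run cannot show how the fit handles one. DESeq2 1.42.0, limma 3.58.1 voom, other filters, a minimum log2 change of 1, a replicate block and each library left out were tried. Libraries pool mice, so p-values measure the spread between these pools. Other pathway genes were named if a group mean reached 5 CPM, up to 3 per list and comparison. The members and all lists were chosen with earlier results of these data known.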

Additional observations from a re-analysis of the deposited data

Results flagged for a closer look

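In 5 of 60 sets of 4 libraries (10 genes in 6 groups), 1 library lay far from the other 3 by Dixon's criterion at the 95% level, where chance gives about 1 in 20. Ptges was high in M1 replicate 2 (381.45 CPM), as was Alox5ap (26.095 CPM), while Hpgds was low there (30.386 CPM). Alox5ap was low in M0 replicate 4 (46.337 CPM), and Lta4h was low in M2 replicate 3 (113.79 CPM).

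The effect of ONX-0914 differed between states for 5 genes, by edgeR's test of the difference itself on the log2 scale. For Ptgs1 the effect in M2 minus that in M0 was -0.443, and that in M1 minus that in M2 was 0.4485. For Ptgs2 the effect in M1 minus that in M2 was -1.211. For Ptges the effect in M1 was lower than in M0 (-0.6585) and than in M2 (-0.8652). For Ptgis it was lower in M1 than in M2 (-0.3081). For Hpgds it was lower in M1 than in M0 (-0.5214) and than in M2 (-0.4888).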

How the results depend on the processing

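Each of the 90 results on the 10 genes was recomputed under 32 settings, 24 of which leave out a library. This gave 2861 of 2880 possible values, and the other 19 (15 of Alox15, 3 of Ltc4s and 1 of Alox5) could not be had, through the filter on low counts or an adjusted p given as NA. No called result reversed, while 40 values of 16 results that were not called changed sign. Of the 2861, 2771 kept their side of the threshold, 70 lost a call and 20 gained one. Of the 45 called results, 37 kept their call in every setting other than the minimum log2 change of 1. For ONX-0914 in M0, where 2 members were called, the count was 1 with DESeq2 size factors, 4 with voom, 1 with no filter and 0 to 4 with a library left out, and voom called 4622 of all genes. For the effect in M2 minus M0, where 1 was called, it was 2 with the DESeq2 Wald test, with no filter and when only its own libraries were fitted, and 1 to 2 with a library left out. Over all genes that comparison gave 1847 calls with voom, 1590 with its libraries alone, and 660 to 1672 with a library left out (907 here). For M1 minus M2, 3 members were called with those libraries alone, against 5. The cause of these shifts was not tested. A required log2 change of at least 1 asks for more by construction. It left 0 members and 40 genes for ONX-0914 in M0, 0 and 236 in M1, and 0 and 179 in M2. It left 2935 genes in M1 against M0, 2 members and 352 genes in M2 against M0, and 6 members and 2835 genes in M1 against M2. For the differences of effects it left 0 members and 26 genes (M1 minus M0), 0 and 2 (M2 minus M0), and 0 and 12 (M1 minus M2). Deviations of same-numbered libraries correlated at a median of 0.0031, and those of differently numbered libraries at -0.0043. Among the 4 replicate numbers, 10 of 24 libraries correlated best with their own. The sources used here do not say that replicate numbers mark shared mice, and these correlations cannot decide it. With the replicate block 3 members and 3131 genes were called for ONX-0914 in M0, Alox5ap being added (0.20, adjusted p = 0.018), and no other member count changed. Depth limits Alox5, Alox15 and Ltc4s most, which had 8 to 114 counts per group.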
